A study of Mus musculus with 76 samples.

Results

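The 10 genes described here encode chaperones and folding enzymes of the endoplasmic reticulum (ER) and a transcription factor that controls them. They were chosen by name (Hspa5, Hsp90b1, Calr, Canx, Pdia3, Pdia4, Pdia6, Dnajb9, Xbp1 and Sdf2l1), by a rule that uses no measured value, though with earlier results of these data known. All 10 are in both deposited tables, among 18964 entries for visceral white adipose tissue (WAT) and 16775 for liver. All 10 had a mean normalized count of at least 10 in each tissue and were tested, among 12798 genes in WAT and 11710 in liver.

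The study compared female mice homozygous for either of 2 alleles of a conserved site in the 3′UTR of Fnip2, which encodes a partner of folliculin in nutrient signaling. Fnip2 T/T mice carry the ancestral allele, and Fnip2 C/C mice carry a T-to-C change knocked in with CRISPR/Cas9, together with a G-to-C change nearby that removes the guide's PAM, so that the comparison is of both changes against neither. Both genotypes were on a C57BL/6 background and had free access to food, and the sources used here give no age for the sequenced mice and no number of founder lines. Poly(A) RNA was sequenced from its 3′ end in WAT of 4 C/C mice (590, 593, 599 and 638) and 5 T/T mice (607, 608, 609, 657 and 658), and in liver of 5 C/C mice (590, 591, 592, 638 and 639) and 5 T/T mice (607, 608, 657, 658 and 659). In all, 6 of the 13 mice gave both tissues.

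Proteins that enter the secretory pathway fold in the ER lumen. BiP, the product of Hspa5, is an Hsp70 that binds unfolded chains with the help of J-domain partners. Calnexin and calreticulin hold glycoproteins by their sugars, and protein disulfide isomerases form and rearrange disulfide bonds. When unfolded proteins accumulate, the unfolded protein response raises many of these genes through the transcription factors ATF6 and XBP1, while the kinase PERK acts through ATF4. Hepatocytes are professional secretory cells, and adipocytes secrete adipokines such as adiponectin in large amounts.

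The classical ER stress response element is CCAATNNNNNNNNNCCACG, where a general factor binds the first 5 bases and ATF6 or XBP1 the last 5. It was searched on both strands from 250 bases before to 50 bases after the annotated start of each gene in RefSeq (GRCm38.p6), in which all 10 genes were found by symbol. It occurred in 5 of the 10 genes and in 0.119% of all 32851 promoter windows (0.137% of 27025 genes). The elements are printed 5′ to 3′ along the strand that carries them, with both conserved parts in capitals, because they are the sequence that 5 of these genes share.
Hspa5 (chr2:34772020-34772048, + strand): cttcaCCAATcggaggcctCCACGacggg
Hsp90b1, distal (chr10:86705633-86705661, - strand): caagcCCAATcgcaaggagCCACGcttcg
Hsp90b1, proximal (chr10:86705528-86705556, + strand): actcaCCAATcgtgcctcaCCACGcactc
Calr (chr8:84847070-84847098, + strand): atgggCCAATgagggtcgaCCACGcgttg
Canx (chr11:50325795-50325823, - strand): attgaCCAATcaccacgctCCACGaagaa
Pdia6 (chr12:17266486-17266514, + strand): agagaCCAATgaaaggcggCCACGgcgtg
The element ended 47 bases before the start in Hspa5, 80 in Pdia6 and 127 in Canx. In Calr and in the proximal copy of Hsp90b1 it lay on the strand opposite to the gene. The XBP1-type motif TGACGTG, searched in the same way and not overlapping the element, was in 2.01% of windows and, among the 10 genes, in Hspa5 alone.
Hspa5, XBP1-type motif (chr2:34771928-34771944, + strand): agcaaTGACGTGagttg
The related element ATTGGNCCACG was in 0.0365% of windows and in none of the 10. For Pdia4 and Xbp1, which held no match, the bases just after the RefSeq start were not found in the GENCODE transcripts, so that the place of their windows was not checked by a second annotation. A match describes these letters only and does not show that a factor binds there.

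Recovered reads per library ranged from 4180209 to 6277644 in WAT and from 5583041 to 7523200 in liver, and the 10 genes had between 14 reads (Sdf2l1 in WAT of mouse 590) and 9980 reads (Hspa5 in liver) in a library. Fnip2 itself was at 22.8 ± 6.99 normalized counts (SD, n = 4) in C/C WAT and 28.3 ± 10.5 (n = 5) in T/T WAT, with overlapping groups. In liver it was at 155 ± 29.2 (n = 5) in C/C and 104 ± 33.2 (n = 5) in T/T mice. These groups overlapped too. The exact permutation p was 0.0159, and limma gave an unadjusted p of 0.0148 and an adjusted p of 1.00. Defining adipocyte genes gave between 16420 and 50200 CPM (reads of a library scaled to a total of 1000000) in WAT, and hepatocyte genes between 110500 and 141200 CPM in liver. The WAT library of C/C mouse 593 held 4885 CPM of ovary genes, against 23.9 CPM in the lowest C/C library and 10.5 to 25.1 CPM in the T/T libraries.

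In WAT, 6 of the 10 genes differed between the genotypes and they split evenly in direction. Hsp90b1, Canx and Pdia4 were higher in C/C mice, and Pdia3, Pdia6 and Xbp1 were lower. Hspa5, Calr, Dnajb9 and Sdf2l1 did not pass the test. The adjusted p-values are from limma over all 12798 genes, by which 32.1% of all genes were called, 15.1% as higher and 17% as lower in C/C mice. The median log2 difference of the 10 genes was 0.09, beside 0.02 for all genes tested. The reads come from bulk tissue, in which fewer cells of a type and less RNA per cell cannot be told apart.

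Hspa5 encodes BiP, the Hsp70 of the ER lumen. Its normalized counts in WAT were 1956, 2356, 2134 and 2597 in C/C mice 590, 593, 599 and 638. T/T mice 607, 608, 609, 657 and 658 had 1406, 2248, 2460, 1595 and 2218. The groups overlapped, since 3 T/T mice lay within the C/C range and the other two lay below it. The log2 difference, C/C minus T/T, was 0.21 (SE 0.21, 95% interval -0.25 to 0.67, adjusted p = 0.463), and the exact permutation p was 0.333.

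Hsp90b1 encodes GRP94, the Hsp90 of the ER, which folds integrins and Toll-like receptors. C/C mice had 1950, 1992, 1697 and 2897 normalized counts in WAT, in the same order of mice. T/T mice had 748, 1572, 1220, 1143 and 976. All 4 C/C values lay above all 5 T/T values, with mouse 638 highest and mouse 607 lowest. The means were 2134 ± 525 (SD, n = 4) and 1132 ± 305 (SD, n = 5), a log2 difference of 0.93 (SE 0.24, 1.90-fold, adjusted p = 0.0106).

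Calr encodes calreticulin, the soluble lectin chaperone, which also stores calcium. C/C mice had 1859, 1671, 1795 and 3013 normalized counts of it in WAT. The T/T mice had 867, 1618, 1770, 1160 and 1294. Mouse 638 stood well above the other 3 C/C mice, and C/C mouse 593 lay below T/T mouse 609. The log2 difference of 0.64 (SE 0.25, 95% interval 0.10 to 1.17) missed the threshold with an adjusted p of 0.0651, and without mouse 638 it was 0.45 (adjusted p = 0.188). It passed with DESeq2 on the recovered reads (adjusted p = 0.0374), with library weights (0.0309) and without T/T mouse 609 (0.0357).

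Canx encodes calnexin, the membrane-bound lectin chaperone. It had 1425, 1474, 1191 and 1406 normalized counts in C/C WAT. In T/T WAT it had 821, 862, 1000, 901 and 785. The groups did not overlap and the spread within each was small, with means of 1374 ± 125 (SD, n = 4) and 874 ± 83.0 (SD, n = 5). The log2 difference was 0.65 (SE 0.16, 1.57-fold, adjusted p = 0.00956).

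The 3 disulfide isomerases all differed between the genotypes, and not in the same direction. Pdia4 encodes ERp72. C/C mice had 195, 233, 202 and 491 normalized counts in WAT. T/T mice had 66.5, 112, 102, 106 and 87.9. Every C/C value lay above every T/T value, and mouse 638 was again the highest. The log2 difference was 1.46 (SE 0.27, 2.76-fold, adjusted p = 0.00223), and it was 1.16 without mouse 638, where the call held.

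Pdia3 encodes ERp57, which works on glycoproteins held by calnexin and calreticulin and on the loading of major histocompatibility complex class I. Its normalized counts were 582, 613, 426 and 481 in C/C WAT. The 5 T/T values were 737, 1025, 911, 995 and 1014. All C/C mice lay below all T/T mice, with means of 526 ± 87.0 (SD, n = 4) and 936 ± 120 (SD, n = 5). The log2 difference was -0.84 (SE 0.18, 1.79-fold lower, adjusted p = 0.00457).

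Pdia6 encodes P5, a BiP-associated isomerase that also attenuates the sensor IRE1. Its counts were 81.2, 50.5, 85.6 and 102 in C/C WAT. They were 265, 219, 172, 332 and 407 in T/T WAT. The highest C/C mouse was below the lowest T/T mouse. With a log2 difference of -1.77 (SE 0.27, 3.42-fold lower, adjusted p = 0.00102), it had the lowest p of the 10 genes. The WAT values of Pdia6 rest on 54 to 537 reads per library.

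Xbp1 encodes the transcription factor whose mRNA is spliced by IRE1 when the response is active. The spliced and unspliced forms share their 3′ end and could not be told apart here. Normalized counts were 85.9, 44.9, 32.5 and 43.3 in C/C WAT. T/T mice ranged widely, with 312, 114, 58.0, 203 and 314. T/T mouse 609 fell below C/C mouse 590, so the groups overlapped. The log2 difference was -1.77 (SE 0.46, 3.42-fold lower, 95% interval -2.78 to -0.77, adjusted p = 0.0127), the widest interval of the 10.

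Dnajb9 and Sdf2l1 encode partners of BiP, the J protein ERdj4 and a component of J-protein complexes. Dnajb9 had 52.9, 58.0, 49.9 and 44.5 normalized counts in C/C WAT. In T/T WAT it had 78.8, 36.0, 55.8, 57.5 and 97.0. The C/C values fell inside the T/T range, and the log2 difference was -0.27 (SE 0.27, 95% interval -0.85 to 0.32, adjusted p = 0.478). Sdf2l1 had 16.5, 43.0, 29.3 and 37.5 in C/C WAT. It had 26.3, 29.2, 25.7, 33.7 and 39.4 in T/T WAT. Here the T/T values fell inside the C/C range. The log2 difference was -0.03 (SE 0.31, 95% interval -0.69 to 0.63, adjusted p = 0.947). With 14 to 52 reads of Sdf2l1 per library, a difference of up to 0.63 in either direction is not resolved.

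**Figure D1:**
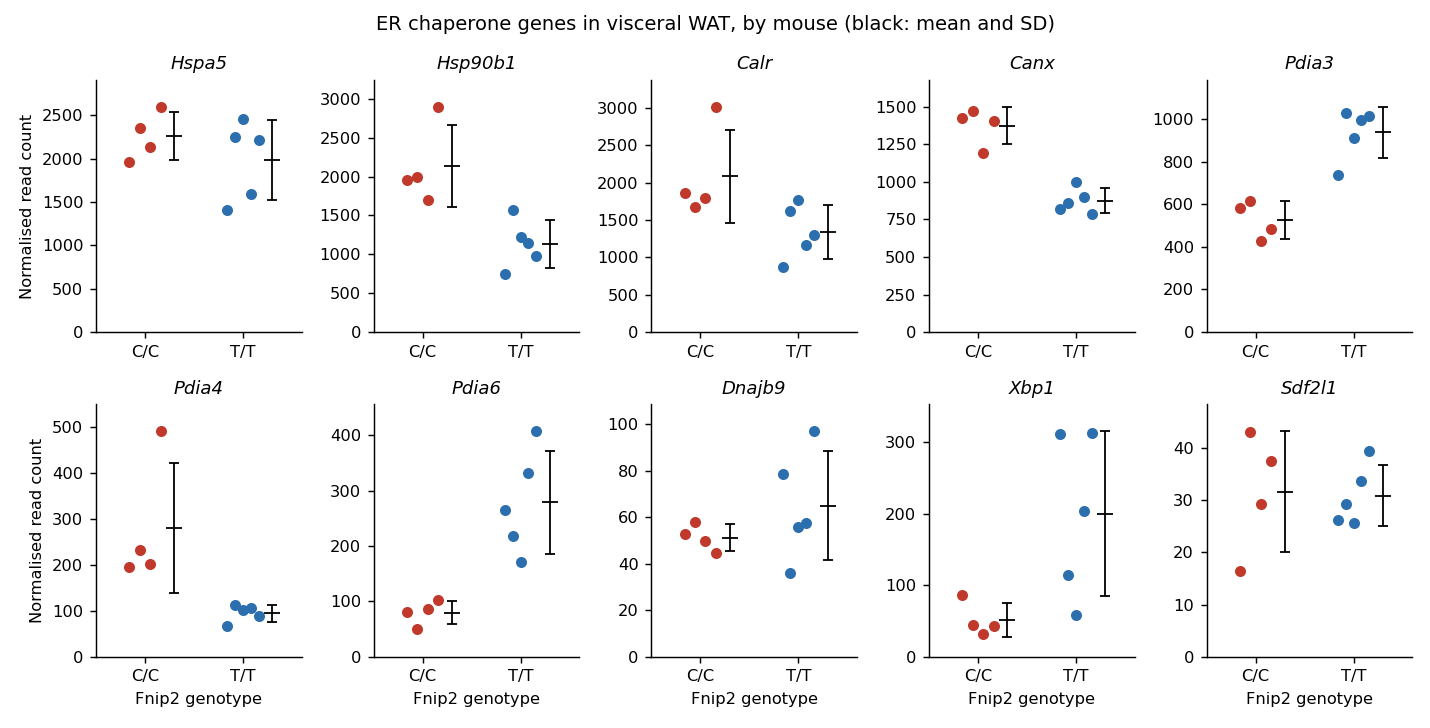
Normalized read counts of the 10 genes in visceral WAT. Each point is 1 mouse (4 C/C, 5 T/T), black marks give the mean and SD, and each vertical axis starts at 0. The C/C points lie apart from the T/T points for Hsp90b1, Canx and Pdia4 (above) and for Pdia3 and Pdia6 (below), and overlap for the other 5 genes.

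In all, 5 of the 10 genes did not overlap between the genotypes in WAT, beside 26.1% of all genes tested. The exact permutation test over 126 groupings, which cannot go below 0.00794, gave this smallest value for Canx, Pdia3, Pdia4 and Pdia6. It gave 0.0159 for Hsp90b1, 0.0317 for Xbp1 and 0.0476 for Calr. The calls of the 6 genes held in each of the 20 alternatives in WAT that gave a test. These included leaving out mouse 593, whose library held ovary genes. Within the 3 C/C and 3 T/T mice numbered under 610, the log2 differences were 1.19 for Pdia4 and -1.33 for Xbp1. All 6 genes had the same direction there. For the 5 genes without overlap this was fixed in advance, since any subset of these mice keeps their direction. Mice numbered over 630 include 1 C/C mouse with WAT, mouse 638, which was the high one for Calr and Pdia4, so that no spread is available for that range (2.33 for Pdia4 and -2.52 for Xbp1).

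Some other properties of the WAT libraries also moved with genotype. Sums of endothelial and hepatocyte genes and the share of small nucleolar RNAs did not overlap between the genotypes. The sums of adipocyte, plasma cell and macrophage genes overlapped. Endothelial genes summed to 261 to 444 CPM in C/C and 491 to 833 CPM in T/T WAT, and 3 of the 4 were called lower. This count and those that follow stand beside 15.1% of all genes tested called higher and 17% called lower in C/C WAT. Summed hepatocyte genes were at 47.7 to 130 CPM in C/C against 174 to 702 CPM in T/T WAT, with Cps1 and Fgb absent. Of 8 adipocyte genes 6 were called lower in C/C WAT, with summed levels of 16420 to 49040 CPM against 25560 to 50200 CPM. The medians of these sums were 37010 CPM in C/C and 37560 CPM in T/T WAT. Of 5 plasma cell genes 3 were called lower and 1 higher, at 541 to 708 CPM against 424 to 1058 CPM, with Mzb1 absent. Of 6 macrophage genes 2 were called lower and 1 higher. Their sums were 483 to 1154 CPM in C/C and 480 to 749.5 CPM in T/T WAT, with medians of 856.5 and 549.2 CPM. Small nucleolar RNAs made up 0.0276% to 0.154% of C/C reads and 0.00949% to 0.0196% of T/T reads. The part of these in the values of the 10 genes was not tested. All 4 C/C libraries of WAT have an even RNA number in the labels and all 5 T/T libraries an odd one, so that an effect tied to this numbering and the genotype cannot be told apart.

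In liver none of the 10 genes passed the test between the genotypes, as the labels give them. The liver table lists its columns with even RNA numbers before those with odd ones, as the WAT table does, but by the labels 2 of 5 C/C and 3 of 5 T/T livers have an even number. Whether the labels match the grouping used in making the table is not given in the sources used here, and all liver values rest on the labels. By limma 0% of 11710 genes were called, and 1.97% (231 genes) had an unadjusted p under 0.05, none of them among the 10. edgeR and DESeq2 on the recovered reads also called 0 genes, with 249 and 225 at an unadjusted p under 0.05. For each of the 10 genes the groups overlapped, while 0.248% of all genes did not overlap. The median log2 difference of the 10 was -0.02, and the 95% intervals below show what sizes these livers leave unresolved.

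Hspa5 had 8027, 7207, 7254, 9970 and 10539 normalized counts in livers of C/C mice 590, 591, 592, 638 and 639. Livers of T/T mice 607, 608, 657, 658 and 659 had 5071, 6205, 7155, 10937 and 8890. The lowest and the highest liver were both T/T. The log2 difference was 0.20 (SE 0.19, 95% interval -0.19 to 0.59, adjusted p = 1.00), close in size to that in WAT.

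Xbp1 was spread within both groups in liver. C/C livers had 474, 505, 683, 662 and 470 normalized counts. T/T livers had 656, 713, 511, 656 and 732. Of the C/C mice 3 lay below all T/T mice and the other two lay among them. The log2 difference was -0.23 (SE 0.14, 95% interval -0.53 to 0.06), with an exact permutation p of 0.119 and an unadjusted limma p of 0.114.

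Sdf2l1 had 135, 125, 130, 204 and 167 normalized counts in C/C livers. It had 120, 119, 178, 215 and 261 in T/T livers. The spread within T/T livers spanned the C/C range, and the log2 difference was -0.18 (95% interval -0.64 to 0.27). Dnajb9 was likewise spread within both groups, from 167 to 310 in C/C and from 142 to 360 in T/T livers, with mice 638 and 658 at the top of their groups. Its log2 difference was -0.01 (95% interval -0.51 to 0.49).

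For the genes called in WAT, the liver intervals were narrower than in WAT. Hsp90b1 ranged from 1725 to 3012 in C/C and from 1870 to 3104 in T/T livers, a log2 difference of -0.14 (95% interval -0.50 to 0.21). Canx was at 1425 ± 141 (SD, n = 5) and 1387 ± 95.1 (SD, n = 5), a difference of 0.04 (-0.20 to 0.27). Pdia3 was at 1315 ± 235 (SD, n = 5) and 1330 ± 133 (SD, n = 5), a difference of -0.03 (-0.31 to 0.25). Pdia4 ranged from 224 to 432 in C/C and from 225 to 368 in T/T livers, a log2 difference of 0.09 (-0.26 to 0.44). Pdia6 was at 1469 ± 262 (SD, n = 5) and 1582 ± 332 (SD, n = 5), a difference of -0.10 (-0.44 to 0.25). The intervals of these 5 genes leave out the differences measured in WAT. Calr differed by 0.03 (-0.23 to 0.29), with livers between 2848 and 4063 counts.

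**Figure D2:**
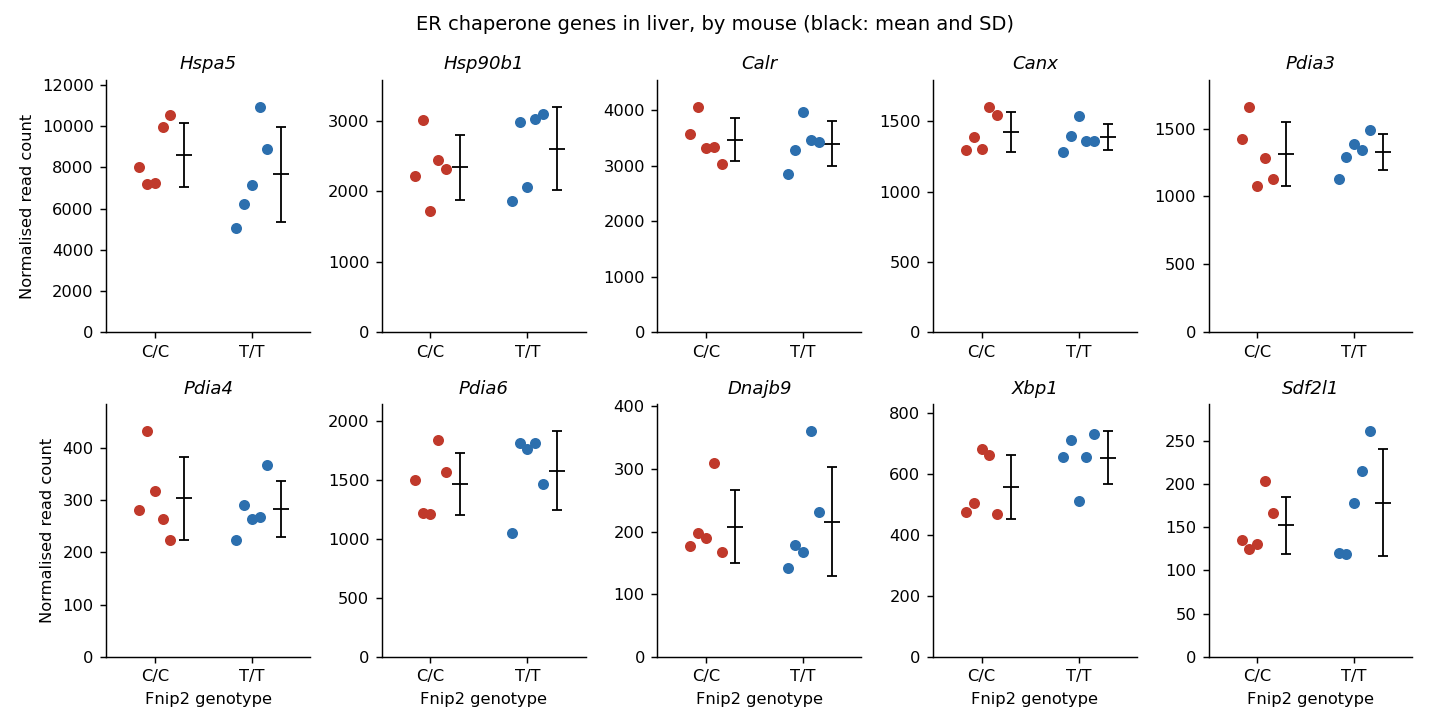
Normalized read counts of the 10 genes in liver. Each point is 1 mouse (5 C/C, 5 T/T), black marks give the mean and SD, and each vertical axis starts at 0. The C/C and T/T points overlap for all 10 genes, and T/T livers of Hspa5 span 5071 to 10937.

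The genotype effect in WAT minus that in liver was tested as an interaction over 10404 genes of all 19 libraries, and limma called 29.2% of them. Of the 10 genes 6 passed, the same 6 that were called in WAT. The effects in WAT exceeded those in liver by 1.38 on the log2 scale for Pdia4 (adjusted p = 0.00375), 1.07 for Hsp90b1 (0.0113) and 0.62 for Canx (0.0129). The differences were -1.68 for Pdia6 (adjusted p = 0.000819), -0.81 for Pdia3 (0.00841) and -1.54 for Xbp1 (0.032). The call of Xbp1 was the weakest, and it was lost in 9 of 24 alternatives, among them a term for the range of mouse numbers (adjusted p = 0.0502), quantile normalization (0.0517) and leaving out C/C mouse 592, 593, 599 or 638 or T/T mouse 607, 657 or 658 (0.0529 to 0.103). Calr, with a difference of 0.61 (adjusted p = 0.101), and Hspa5, with 0.01 (0.982), did not pass.

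**Figure D3:**
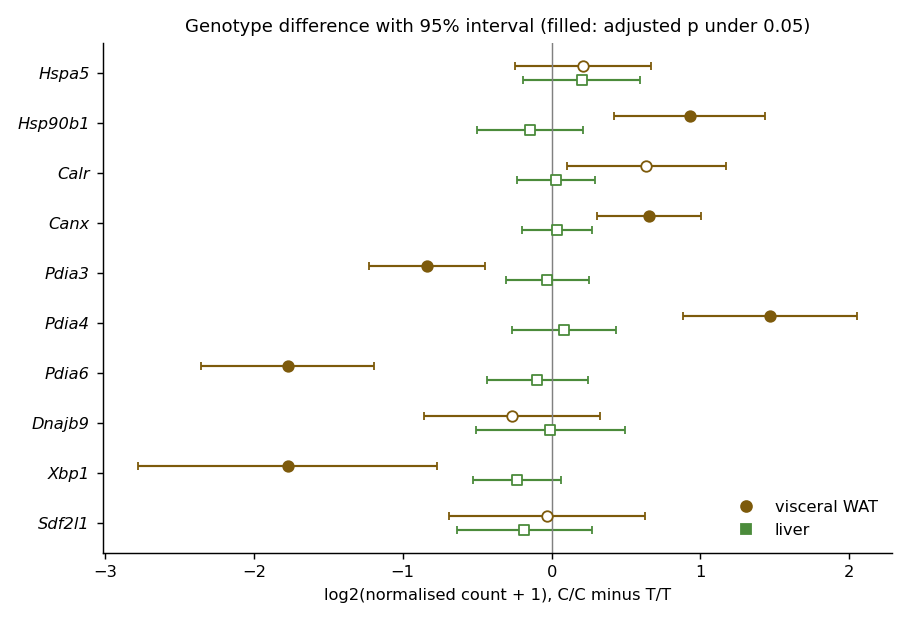
Log2 difference between C/C and T/T mice for each of the 10 genes in visceral WAT (circles) and liver (squares), on the scale of log2(normalized count + 1). Bars are 95% intervals and filled symbols have an adjusted p under 0.05. The 6 filled symbols are all WAT values, from -1.77 for Pdia6 and Xbp1 to 1.46 for Pdia4, and all 10 liver intervals include 0.

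The levels of the 10 genes are given side by side in CPM, without a test, since the tissues were normalized in separate tables and made from different amounts of RNA. Hspa5 lay between 341 and 544 CPM in WAT and between 714 and 1600 CPM in liver. Pdia6 lay between 11.7 and 85.5 CPM in WAT and between 148 and 279 CPM in liver. Sdf2l1 lay between 3.25 and 9.94 CPM in WAT and between 16.9 and 40.7 CPM in liver. For these 3 genes every liver was above every WAT library. Over both genotypes the medians of Xbp1 were 16.9 CPM in WAT and 93.5 CPM in liver. The WAT medians of Xbp1 were 9.61 CPM in C/C and 47.3 CPM in T/T mice. Its liver value was higher in 6 of the 6 mice with both tissues, as was that of Dnajb9. For Hsp90b1 the medians over both genotypes were 342 CPM in WAT and 344 CPM in liver, and for Canx 210 and 212 CPM. These hide the genotypes. Medians of Hsp90b1 were 422 CPM in C/C and 250.5 CPM in T/T WAT, and 339 and 443 CPM in liver. Those of Canx were 284 CPM in C/C and 199 CPM in T/T WAT, and 211.7 and 212.3 CPM in liver. All 10 genes together took 1591 to 2269 CPM in C/C WAT and 1293 to 1705 CPM in T/T WAT.

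Mice of 1 genotype also differed among themselves, and the 9 other genes were compared with Hspa5 on deviations from the genotype mean, as 18 pairs over both tissues. Sdf2l1 followed Hspa5 most closely in liver, with a Pearson r of 0.870 (exact permutation p = 0.00729, adjusted over the pairs 0.0875) and a Spearman rho of 0.891 (p = 0.00743, adjusted 0.103) over 10 livers. Without mice 658 and 607, which were farthest from the median of Hspa5, r was 0.892. In WAT the closest was Calr, with r of 0.831 (exact permutation p = 0.00972, adjusted 0.0875) and rho of 0.800 (p = 0.0115, adjusted 0.103) over 9 libraries, and r of 0.689 without mice 607 and 657. Pdia4 in WAT (r = 0.573, exact permutation p = 0.0417) and Dnajb9 in liver (r = 0.753, p = 0.0288) had rho values of 0.650 and 0.479. Without the same mice r was 0.819 for Pdia4 and 0.417 for Dnajb9. No pair passed an adjusted p of 0.05, and the other 14 had a p over 0.05.

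The r values of both tissues are given side by side, without a test of their difference. In WAT the r of Xbp1, Dnajb9 and Pdia6 with Hspa5 was below 0, at -0.63, -0.30 and -0.24. In liver only Pdia4 and Xbp1 were below 0, at -0.09 and -0.01. Of 10 further genes of the Hsp70 system, 8 had an r above 0 in liver and 4 in WAT, with medians of 0.49 and -0.29. In liver the cochaperones and BiP-linked factors Creld2, Manf and Hyou1, named after their values were seen, had r of 0.88, 0.87 and 0.85, while Dnajc10, a reductase with a J domain of the same list, had -0.86. In WAT the r of the first 3 was -0.63, -0.44 and -0.29, and that of Dnajc10 was 0.45. These values are descriptions over 10 and 9 libraries that share a table and its size factors.

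**Figure D4:**
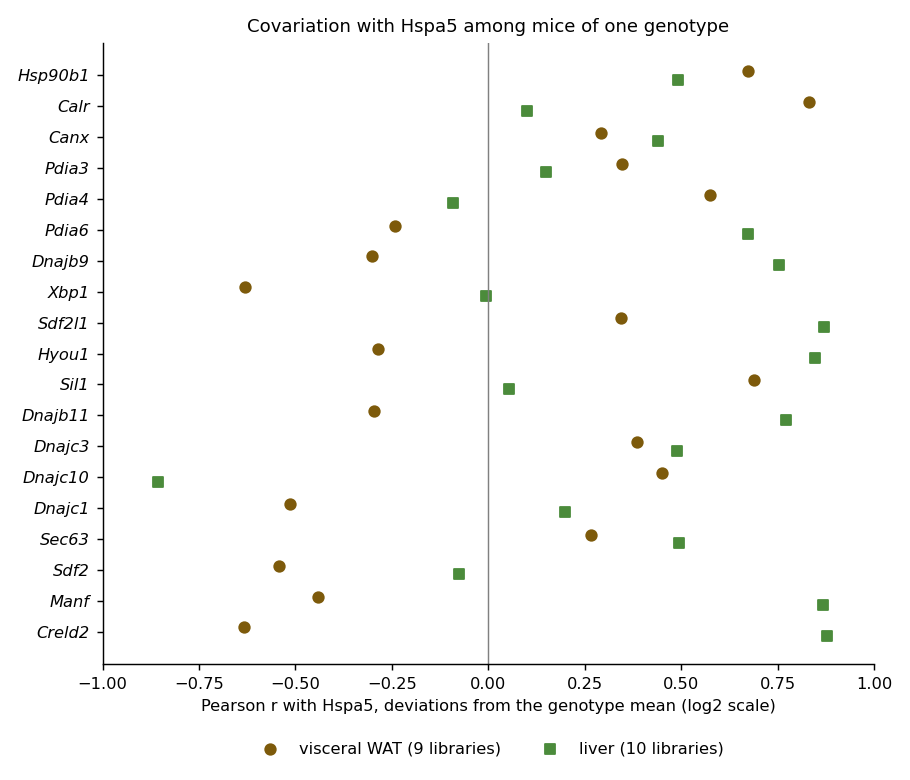
Pearson r of each gene with Hspa5 on deviations from the genotype mean (log2 scale), over 9 WAT libraries (circles) and 10 livers (squares), for the 9 other genes and 10 further genes of the Hsp70 system of the ER. Sdf2l1 (0.87), Manf (0.87) and Creld2 (0.88) lie at the right in liver, while Manf (-0.44) and Creld2 (-0.63) lie left of 0 in WAT.

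Over all genes tested, the 5 with the highest r with Hspa5 in WAT were Snrpd3 (0.98), Slc46a1 (0.97), Nelfcd (0.97), Jmjd8 (0.96) and Aspscr1 (0.96). In liver they were Vps53 (0.96), Atp2a2 (0.95), Gm9385 (0.92), Thnsl1 (0.92) and Ppfia1 (0.90). Atp2a2 encodes the calcium pump of the ER. Sdf2l1 ranked 9th of 11709 genes by this measure in liver, and Calr ranked 111th of 12797 in WAT. With 9 or 10 libraries and this many genes such values are a ranking and no test.

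The rest of the folding machinery in WAT was described by 7 lists of ER genes. Of their 100 tested genes, 9 were called higher and 24 lower in C/C WAT, beside 15.1% and 17% of all genes, and their median log2 difference was -0.23. By list, the share called in either direction was 17.6% for ER-associated degradation and 27.3% for oligosaccharyltransferase. It was 23.1% for sensors and factors of the unfolded protein response. For the other ER lists it was 35.7% to 43.5%, beside 32.1% of all genes tested. In liver limma called 0 of 101, with 0 at an unadjusted p under 0.05. The list genes named below are those with the largest called differences in WAT. Some rest on few reads, with 8 in the lowest library for Manf, 6 for Hyou1, 9 for Erp44 and Edem2 and 10 for Txndc11. In WAT the groups overlapped for Manf, Hyou1, Tmx4, Erp44, Edem2, Selenos, Ssr4, Krtcap2, Atf4 and Ddit3.

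Among 10 genes that work with BiP, 1 rose and 3 fell in C/C WAT. Sil1, a nucleotide exchange factor of BiP, was higher by 0.91 (728 against 390 normalized counts, adjusted p = 0.00478). Manf, which stabilizes BiP complexes, was at 13.0 against 69.3, a log2 difference of -2.05 (0.00786). Hyou1, the large Hsp70 of the ER, was at 13.1 against 40.5, a difference of -1.48 (0.0190). Of 14 further isomerases and oxidases 1 was higher and 4 were lower. Tmx4 was higher by 0.62 (adjusted p = 0.0365), while Txndc11 (-1.71, 0.00438) and Erp44 (-1.49, 0.0200), which retains secretory proteins such as adiponectin, were lower.

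Of 12 genes of the glycoprotein folding cycle and its lectin carriers, 0 were higher and 5 were lower. Mogs, the first glucosidase of the cycle, was at 28.1 against 91.7 normalized counts (log2 difference -1.71, adjusted p = 0.00187), and Edem2, a mannosidase-type factor, at 11.9 against 41.4 (-1.56, 0.0132). Both stand on the same pathway as Canx, which was higher. Of 17 genes of ER-associated degradation 3 were lower, with Derl1 at -0.75 (adjusted p = 0.0374, and 0.0551 by edgeR) and Selenos at -0.63 (0.0411).

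Among 23 genes of protein entry and signal cleavage 3 were higher and 7 lower in C/C WAT. Sec61g and Ssr4, subunits of the translocon and its associated complex, were higher by 1.40 (adjusted p = 0.00264) and 1.03 (0.0124). Spcs2, a signal peptidase subunit, differed by -1.44 (0.00106) and Ssr2 by -1.37 (0.00606). Subunits of 1 complex thus moved in opposite directions, as Ssr4 and Ssr2 did. Of 11 oligosaccharyltransferase genes, Magt1 (0.88, adjusted p = 0.00832) and Krtcap2 (0.69, 0.0444) were higher and Ostc (-1.06, 0.00133) was lower.

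Of 13 sensors and transcription factors of the unfolded protein response, 2 were higher and 1 was lower. This is 23.1% called, beside 32.1% of all genes tested in WAT. Atf4 and its target Ddit3, which encodes CHOP, were at 2187 against 1318 and 923 against 297 normalized counts in C/C and T/T WAT. The log2 differences were 0.78 (adjusted p = 0.0267) and 1.70 (0.00443). Atf6b, a relative of ATF6, was at 29.0 against 164, a difference of -2.51 (0.000366). Xbp1, described above, was lower in the same libraries. In liver the 2 list genes with the lowest p were Rpn1 (-0.21) and Txndc12 (0.21), each with an adjusted p of 1.00.

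**Figure D5:**
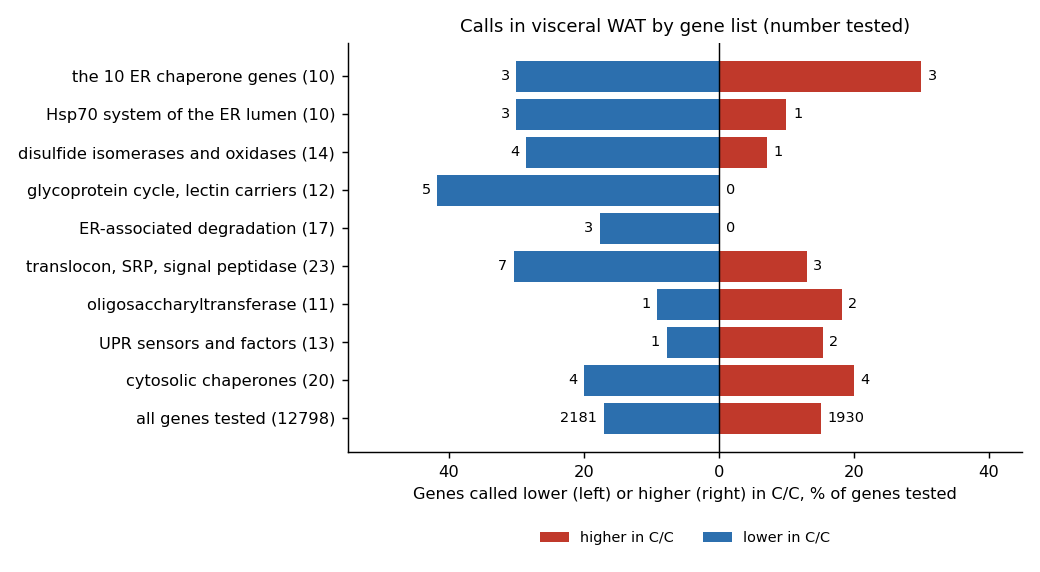
Share of the tested genes of each list called higher (right, red) or lower (left, blue) in C/C WAT, in percent, with the number called beside each bar and the number tested in parentheses. The 10 genes have 3 calls each way, the glycoprotein cycle has 5 lower and 0 higher, and all genes tested have 1930 higher and 2181 lower.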

How the data were processed

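For each tissue the authors deposited a table whose signal values are read counts per gene divided by a size factor per library, with 4 sequencing runs per mouse combined. The submitters' processing notes name FastQC 0.11.9, HISAT2, SAMtools 1.12, HTSeq, DESeq2 and build GRCm39. Whether counting used strand is not given in the sources used here. All values (100%) were whole multiples of the library's smallest step, within 1.8e-09, which gave back the reads. They carry no molecular identifiers, so they count reads and not molecules. Samples were grouped by the genotype and mouse number in the labels, and 1 WAT column that no label describes was not used.

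Values were analysed as log2(value + 1) for genes with a mean of at least 10, in each tissue alone, with limma 3.58.1 in R 4.3.3 (trend and robust options) and genotype as the only term. Calls have a Benjamini-Hochberg adjusted p under 0.05 over all genes tested. Fold changes are on this scale and understate those of low genes. The interaction used both tables. The labels give 6 mice in both tissues, which pairs them, and the consensus correlation within a mouse was -0.114. Single values were compared with exact two-sided permutation tests over all groupings of the mice. Alternatives were pseudocounts of 0.5 and 10, minimum means of 0 and 50, quantile and total scaling, library weights, a threshold of 0.1, terms for mouse number range (under 610 or over 630) and, chosen after seeing the data, for even and odd RNA numbers in liver, edgeR 4.0.16 and DESeq2 1.42.0 on recovered reads, a replicate block and each mouse left out. The fits were tested on simulated data. The 10 genes and all lists were chosen with earlier results of these data known. The text names all 10 genes, from each list the 2 with the most positive and the 2 with the most negative called differences, and the 5 genes most like Hspa5. Promoter sequences are from RefSeq (GRCm38.p6), matched by symbol, since the build differs from that of the tables.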

Additional observations from a re-analysis of the deposited data

Results flagged for a closer look

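In a test for 1 mouse far from its group (Dixon's ratio of the gap to the range), 3 of 40 groups of the 10 genes passed the 95% limit, where chance gives about 1 in 20. All 3 are the highest value of C/C mouse 638. They are Calr in WAT (3013 normalized counts, other C/C mice 1671 to 1859), Pdia4 in WAT (490.8, others 195 to 233) and Dnajb9 in liver (310.4, others 167 to 197).

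The genotype effect differed between WAT and liver by an interaction test for 6 of the 10 genes. The effect in WAT minus that in liver was 1.07 for Hsp90b1, 0.62 for Canx, -0.81 for Pdia3, 1.38 for Pdia4, -1.68 for Pdia6 and -1.54 for Xbp1 on the log2 scale, beside 29.2% of all genes called.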

How the results depend on the processing

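The count of the 10 genes called was 6 or 7 in WAT over 20 alternatives, 0 in liver over 22, and 5 to 7 in the interaction over 25, and the 6 calls in WAT held each time. All genes called ranged from 3010 to 5345 in WAT, 0 throughout in liver and 2165 to 3901 in the interaction. With the mouse as a replicate block the interaction called 6 of the 10 genes and 2753 of all genes, and it changed no call of the 10. Calr passed in the interaction with library weights (adjusted p = 0.0307) and without mouse 609 (0.0445).

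Values near 0, none of them called, changed sign. Sdf2l1 in WAT (-0.03) was 0.11 with quantile normalization, 0.032 with a term for the mouse number range, 0.0063 with edgeR, 0.037 with DESeq2, and 0.028 and 0.039 within mice numbered under 610 and over 630. The interaction of Hspa5 (0.01) was -0.17 with quantile normalization, -0.059 with total scaling and -0.092 with the range term. In liver, Canx was -0.010 with quantile normalization and Dnajb9 was 0.078 with the range term. Within livers of mice under 610 Canx was -0.013, Pdia3 0.17, Dnajb9 0.24 and Sdf2l1 0.13, and within those over 630 Calr was -0.18, Pdia4 -0.28 and Pdia6 0.021. Leaving out each mouse in turn gave ranges of -0.20 to 0.24 for Sdf2l1 in WAT, -0.084 to 0.13 for the interaction of Hspa5 and -0.021 to 0.39 for that of Sdf2l1. In liver they were -0.031 to 0.089 for Calr, -0.0075 to 0.075 for Canx, -0.12 to 0.039 for Pdia3, -0.050 to 0.19 for Pdia4 and -0.16 to 0.20 for Dnajb9. The cause was not tested.

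The p-values for genotype within a tissue rest on the spread between 4 or 5 mice per group, and limma also draws on the spread of all genes. The main interaction fit took the 19 libraries as independent, although 6 mice gave both tissues.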

Other observations

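Chaperones of the cytosol, a list of 20 genes set beside those of the ER, also moved in both directions in C/C WAT, with 4 higher (20%) and 4 lower (20%), beside 15.1% and 17% of all genes tested. Hsp90ab1, the constitutive cytosolic Hsp90, was at 28312 against 12735 normalized counts (log2 difference 1.13, limma adjusted p = 0.00729) and its cochaperone Stip1 at 772 against 362 (1.10, 0.00587). Cct4, a subunit of the TRiC chaperonin, was at 27.7 against 135 (-2.10, 0.00197). Hspa8 was at 59.8 against 106 (-0.80, 0.0286). This gene has many near-identical processed copies, and whether the counting split reads among them was not tested. In liver 0 of 19 were called by limma, with 0 at an unadjusted p under 0.05.

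Beyond the 10 genes, the ER stress response element was in 5 of 84 genes of the ER lists found in the promoter table, which are Creld2, Derl3, Dnajc3, Ero1b and Syvn1. Of all 37 genes with the element, 14 were tested in WAT, 5 of them among the 10 genes. Of the other 9, 1 was called higher (Spats2l) and 1 lower (Alg12) in C/C mice, where 32.1% of all genes tested were called. In liver 16 were tested and limma called 0. These counts are a description, made after the values were known.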
